A study of Mus musculus with 2 samples.

Results

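The genes described here are the 10 core circadian clock genes Arntl, Clock, Npas2, Per1, Per2, Per3, Cry1, Cry2, Dbp and Tef. They were taken by symbol from the probe sets that the platform annotation gives to a single gene, which yielded 25 of 34945 such probe sets and 10 of 18193 named genes. They were read in uterine stromal cells of mice on day 4 of pregnancy, on 1 oligonucleotide array for each of 2 genotypes. The control array carried RNA of Hand2 Floxed mice. The other carried RNA of Hand2-null mice, made by crossing the floxed line with PRcre mice to remove Hand2, the gene of a stromal transcription factor, from the uterus. Cre in that line is made from the progesterone receptor locus, so deletion is not limited to the stroma by the driver. Both arrays carry the same mixed background of C57BL/6 and SV129 with Prcre named in it, and the sources used here do not say whether the floxed controls bore Cre. RNA was pooled over mice before hybridization, from 5 mice per genotype by the series design and 4 by the extraction protocol. The sources used here do not give the hour of the day at which uteri were taken. With 1 pool per genotype there was no replicate, so every ratio compares these pools and carries no error and no p-value.

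The circadian clock is a feedback loop of transcription that runs in most cells. BMAL1, the protein of Arntl, pairs with CLOCK or NPAS2 and switches on genes that carry E-boxes, among them the Per, Cry, Dbp and Tef genes, and the PER and CRY proteins then shut the pair down. A second loop acts back on Arntl, which nuclear receptors of the ROR family activate and those of the REV-ERB family repress. In tissues with a running clock, transcripts of Arntl and Npas2 are therefore abundant when those of Dbp and the Per genes are scarce, with Cry1 peaking later than the Per genes, and tissue taken at different hours usually differs in opposite directions in the 2 groups. The loop runs in the endometrium, and female mice that lack Arntl fail at implantation.

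Promoter windows for 9 of the 10 genes, all but Per2, were taken from RefSeq on build GRCm38.p6 to show which of them carry clock elements close to the start. Each window held the 250 bases before an annotated start, 14 windows in all, and was searched on both strands. The E-box CACGTG lay in 4 windows of 3 genes (Per1, Cry1 and Tef), against 6.02% of all 32851 windows of that length. The D-box TTATGTAA, an element read by the proteins of Dbp and Tef, lay 2 times in the window of Per3 and in 0.819% of all windows. The ROR response element, searched as a pattern of 11 bases, was found in 0 of the 14 windows and in 0.332% of all windows. Elements that lie after the start, run across it or lie further upstream could not be found in these windows. The motifs did not overlap. A match is a run of letters, not a shown binding site. The windows with a match that are printed here lie at chr11:69098699-69098948 on the plus strand for Per1, chr10:85185055-85185304 on the minus strand for Cry1, chr15:81802423-81802672 on the plus strand for Tef and chr4:151044666-151044915 on the minus strand for Per3. They run 5′ to 3′ on the gene's strand, with the E-box or D-box in capitals, beginning 166 bases before the start in Per1, 60 in Cry1, 127 in Tef and 205 and 158 in Per3. A second start of Tef also had an E-box, 138 bases before it.
Per1: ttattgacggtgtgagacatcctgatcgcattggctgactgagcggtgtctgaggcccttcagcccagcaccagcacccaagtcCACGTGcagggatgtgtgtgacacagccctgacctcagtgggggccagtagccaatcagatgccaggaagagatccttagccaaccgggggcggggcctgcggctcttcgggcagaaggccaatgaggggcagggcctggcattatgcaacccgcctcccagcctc
Cry1: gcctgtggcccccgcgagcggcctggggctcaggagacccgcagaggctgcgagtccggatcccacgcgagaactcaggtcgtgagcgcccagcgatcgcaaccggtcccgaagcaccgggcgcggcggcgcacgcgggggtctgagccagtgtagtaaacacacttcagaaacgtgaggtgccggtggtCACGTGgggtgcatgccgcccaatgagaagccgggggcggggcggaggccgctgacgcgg
Tef: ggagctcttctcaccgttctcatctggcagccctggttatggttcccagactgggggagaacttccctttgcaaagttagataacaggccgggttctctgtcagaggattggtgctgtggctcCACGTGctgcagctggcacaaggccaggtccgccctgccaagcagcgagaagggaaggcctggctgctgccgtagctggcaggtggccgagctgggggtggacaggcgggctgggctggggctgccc
Per3: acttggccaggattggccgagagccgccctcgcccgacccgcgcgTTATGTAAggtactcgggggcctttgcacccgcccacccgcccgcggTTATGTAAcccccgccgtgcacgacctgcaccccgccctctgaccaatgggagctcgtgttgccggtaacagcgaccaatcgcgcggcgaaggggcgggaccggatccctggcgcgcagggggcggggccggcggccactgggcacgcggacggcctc

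The arrays held 45101 probe sets with linear MAS5 signals. A signal was read as measured at or above the floor of its array, the 60th percentile of non-control probe sets, which was 64.2 in the control and 67.5 in the Hand2-null array. A value under the floor was set to it, so that a ratio with 1 array under its floor is a bound. Each gene was read from its brightest probe set by mean log2 signal, and 10376 genes were measured. Their log2 ratios of Hand2-null over control had a median of -0.03 and a standard deviation of 0.39, and the middle 95% lay between -0.66 and 0.93. Probe sets of the same gene differed with a standard deviation of 0.19 over 3665 genes, using only signals that reached both floors. This spread stands in for a part of the technical error. It holds no variation between mice, and no error of RNA preparation, labelling or hybridization that the probe sets of a gene share. Whether it is as small for signals near the floor was not tested. Hand2 checked the labels, with a signal of 1545 in the control and 38.5 in the Hand2-null array by its bright probe set.

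The clock transcripts were close to equal in the 2 pools. All 10 genes were measured, Per3 only through the control array. In the Hand2-null array 4 were higher and 6 lower, where 44.7% of all measured genes were higher. None differed 1.5-fold, where 9.53% of all measured genes did in either direction, so the count does not set the clock genes apart from the array. None differed 2-fold, against 2.73% of measured genes. The log2 ratios ran from -0.34 for Tef to 0.57 for Per2, with a median of -0.04 and a standard deviation of 0.25. Of the 9 genes above the floor in both arrays, all lay within the middle 95% of measured genes, 5 lay within the middle 50%, which ran from -0.20 to 0.16, and 6 were no larger in size than the standard deviation between probe sets. Of the 25 probe sets 13 were above the floor in both arrays, 6 of them higher and 7 lower, 2 gave a bound and 10 were under the floor in both.

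**Figure D1:**
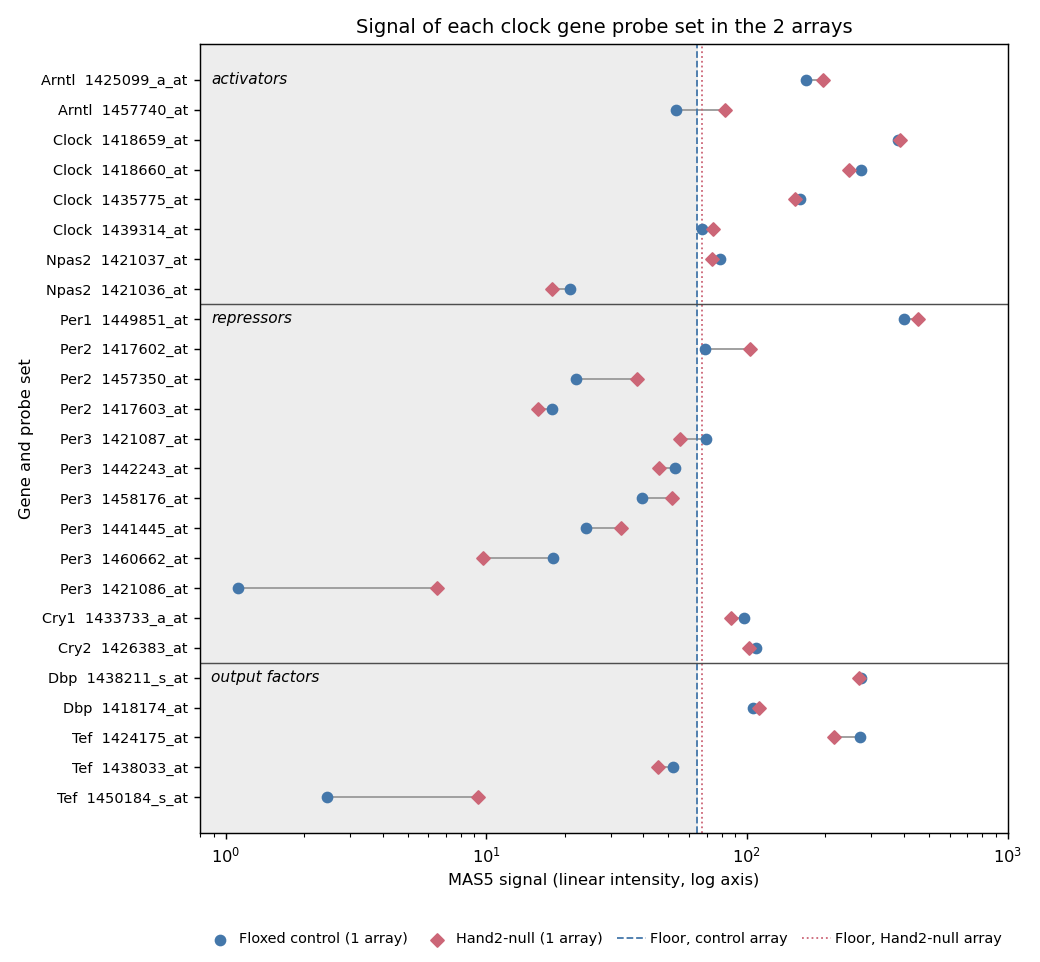
MAS5 signal (linear intensity on a log axis) of all 25 clock gene probe sets, with a circle for the 1 floxed control array and a diamond for the 1 Hand2-null array. Vertical lines mark the floors of 64.2 and 67.5, grey marks signals under the control floor, and most pairs right of the lines nearly coincide, with Per2 at 68.9 and 102 the widest apart of those above the floor in both arrays.

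Among the activators, Arntl, whose protein BMAL1 is the partner every clock activator needs, had a signal of 168 in the control and 195 in the Hand2-null array by 1425099_a_at. That is a log2 ratio of 0.21, and 43.9% of measured genes had a ratio at least as large in size. Its second probe set, 1457740_at, was under the floor in the control at 53.3 and above it in the Hand2-null array at 82.7, a log2 ratio of at least 0.36. Both probe sets of Arntl were thus higher in the Hand2-null array, and the 0.21 of the brighter is close to the 0.19 between probe sets of a gene.

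Clock, the histone acetyltransferase partner of BMAL1, was measured by 4 probe sets, and they split evenly by sign. Signals were 381 in the control and 388 in the Hand2-null array by 1418659_at, 274 and 246 by 1418660_at, 159 and 153 by 1435775_at and 67.4 and 74.3 by 1439314_at. The log2 ratios were 0.02, -0.16, -0.06 and 0.14, so the direction depended on the probe set. Npas2, the alternative partner of BMAL1, had 78.9 and 73.8 by 1421037_at, a log2 ratio of -0.10 near the floor. Its other probe set, 1421036_at, reached the floor in neither array, at 20.9 and 17.9, and no ratio is given.

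Among the repressors, Per1 had 400 in the control and 452 in the Hand2-null array on its 1 probe set, 1449851_at, a log2 ratio of 0.18. Per2, like Per1 a partner of CRY in the repressing complex, showed the largest ratio of the 10 genes. Its probe set 1417602_at had 68.9 in the control, just above the floor, and 102 in the Hand2-null array, which is 1.49-fold or a log2 ratio of 0.57. A ratio of that size or more was shown by 9.98% of measured genes. The other probe sets of Per2 were under the floor in both arrays and went opposite ways, at 22.0 and 37.9 by 1457350_at and at 17.9 and 15.8 by 1417603_at. The higher value of Per2 thus rests on 1 probe set close to the floor, and centring the arrays on their median takes it just past 1.5-fold, to a log2 ratio of 0.60.

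Per3, the Per gene that the loop can most readily spare, was the least well measured. Its 1421087_at had 69.9 in the control and 55.5 in the Hand2-null array, below its floor, a log2 ratio of -0.05 or lower. The other 5 probe sets of Per3 reached the floor in neither array, between 1.11 and 52.8 in the control and between 6.49 and 51.6 in the Hand2-null array. Cry1, a repressor whose transcript peaks late in the cycle, had 97.1 and 86.8 by 1433733_a_at, a log2 ratio of -0.16. Cry2, its paralog, had 109 and 101.9 by 1426383_at, a log2 ratio of -0.10. Both Cry genes, and Per1 at 0.18, thus differed by less than the 0.19 between probe sets of a gene. Per2 was higher at 0.57, and each of the 4 rests on a single measured probe set.

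The output factors Dbp and Tef encode bZIP proteins that carry the rhythm to genes with D-boxes, and the Dbp transcript has one of the widest daily swings known in mouse tissues. Dbp had 274 in the control and 269 in the Hand2-null array by 1438211_s_at, and 106 and 112 by 1418174_at. The log2 ratios were -0.03 and 0.08, so its probe sets differed in sign and by less than the spread between probe sets. The first can cross-hybridize, as its suffix says. Tef had 272 and 215 by 1424175_at, 1.26-fold lower or a log2 ratio of -0.34, a size reached by 25.9% of measured genes. The other Tef probe sets reached the floor in neither array, at 52.3 and 45.5 by 1438033_at and at 2.44 and 9.33 by 1450184_s_at.

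**Figure D2:**
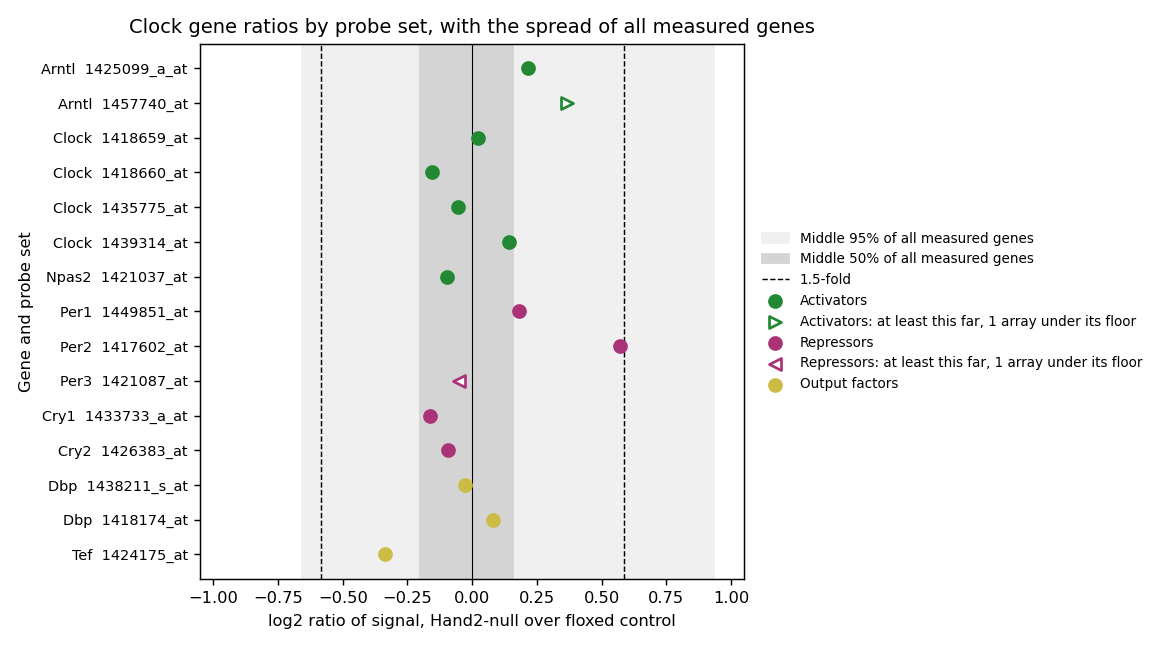
Log2 ratio of signal, Hand2-null over floxed control, for the 15 clock gene probe sets above the floor in at least 1 array, coloured by role. Open triangles point away from a bound with 1 array under its floor, grey bands give the middle 50% and 95% of measured genes, dashed lines mark 1.5-fold, and the probe sets of each role fall on both sides of 0.

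The comparison of roles asked whether activators stood opposite to the genes they drive. The 3 activators had a mean log2 ratio of 0.05, 2 of them higher and 1 lower. The 7 repressors and output factors had a mean of 0.01, 2 higher and 5 lower. The difference between these means was -0.04, or -0.01 with Cry1 left out, with Per3 entered at its bound. The second mean holds Per2 at 0.57, which rests on 1 probe set with 68.9 in the control, just above the floor. Per2 is the highest of the 7, so without it the second mean would be lower and the difference further below 0. The size of that difference was not computed. A floor at the 75th percentile left out Per2, Npas2, Per3, Cry1 and Cry2. The difference was then -0.18, from 2 activators and 3 other genes. The activator mean also holds Clock at 0.02, while the daily phase stated earlier was that of Arntl and Npas2. The genes with a printed E-box had log2 ratios of 0.18 for Per1, -0.16 for Cry1 and -0.34 for Tef. Those of Per1 and Cry1 were smaller in size than the 0.19 between probe sets of a gene, so their signs cannot be compared. Some genes of opposite daily phase lay on opposite sides of 0, such as Arntl at 0.21 and Tef at -0.34, and others on the same side, such as Arntl and Per2 at 0.57. Genes of the same phase, such as Per2 and Tef, also lay on different sides.

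The wider clock machinery was read from a list of 26 genes, of which 23 were on the array and 17 measured. Of these, 8 were higher and 9 lower in the Hand2-null array, and their median was -0.03 on the log2 scale, beside -0.03 for all measured genes. At least 1.5-fold higher were 2, where 6.21% of all measured genes were, and 0 were as much lower, against 3.32%. They were Rora and Bhlhe40. Rora, the receptor that activates Arntl through ROR response elements, had 124 and 217 by its brightest probe set, a log2 ratio of 0.81. Of its 9 probe sets 5 were measured and all 5 were higher, with log2 ratios from 0.09 to 0.81. Bhlhe40, the DEC1 repressor that competes for E-boxes, had 573 and 914 on its 1 probe set, 1.59-fold higher or a log2 ratio of 0.67. Rora was under 1.5-fold, at 0.41 with a floor at percentile 75 and at 0.39 with its probe sets averaged, which left Bhlhe40 as the 1 gene past it.

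The other nuclear receptors and bZIP factors of the loop were read next. Nr1d2, which encodes REV-ERB beta, had 657 and 671, a log2 ratio of 0.03. Nr1d1, which encodes REV-ERB alpha and cycles widely, stayed just under both floors at 56.2 and 63.4. Nfil3, a D-box repressor that peaks together with Arntl, had 611 and 599.5, a log2 ratio of -0.03. Hlf, the third bZIP factor beside Dbp and Tef, was above the floor only in the control array by both probe sets, with log2 ratios of -0.10 and -0.18 or lower. Rorb was at 0.38 by its brightest probe set and at -0.25 and -0.01 by the others.

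Kinases and other partners of the clock proteins were within 1.5-fold by their brightest probe sets. Csnk1e and Csnk1d, the casein kinases that phosphorylate PER, were at log2 ratios of 0.09 and -0.17, and the related Csnk1a1 at -0.12. The direction depended on the probe set for Csnk1d, with 2 of 5 measured ones higher, and for Csnk1a1, with 2 of 4 higher. Gsk3b, another clock kinase, was at -0.27 by its brightest probe set, but 5 of its 6 measured probe sets were higher, up to 0.63. Timeless and its partner Tipin, which act in DNA replication, were at -0.25 and 0.15, and Cipc, an inhibitor of CLOCK, was at -0.26. Fbxw11, a ubiquitin ligase subunit for PER, was at 0.17 by its brightest probe set, but 2 of its 3 measured probe sets were lower. The cofactors Hdac3, Nono and Sirt1 were at -0.18, -0.15 and 0.00. Bhlhe41, Ciart, Arntl2, Fbxl21 and Btrc were under the floor in both arrays.

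Genes that cycle in many tissues under the clock were read as a further list. Of 13 such genes 11 were measured, 7 higher and 4 lower, where 44.7% of all measured genes were higher. Their median log2 ratio was 0.14 against -0.03 over all measured genes. Among the 7 was Pdk4, under the floor in the control at 39.8 and at 73.0 in the Hand2-null array, a log2 ratio of at least 0.18. The median is the value of Nampt by its brightest probe set, and its other measured probe set, at 247 and 199, was at -0.31. With measured probe sets averaged, 6 of the 11 were higher. Usp2, a deubiquitinase whose transcript cycles in phase with the Per genes, had 561 in the control and 349 in the Hand2-null array. It was 1.61-fold lower at a log2 ratio of -0.69, and the other probe set of Usp2, with 375 and 235, was at -0.67. It was the 1 gene of the 11 past 1.5-fold in either direction, beside 9.53% of all measured genes. Cirbp, a cold-induced RNA-binding protein, was at 0.44, the Kruppel-like factor Klf9 at 0.39 with 6 of 6 measured probe sets higher, and Tsc22d3 at -0.38, with 2 of its 3 measured probe sets lower and 1 higher. Usp2 and Tef, both lower, thus stood beside Per2, which was higher, and Per1, whose 0.18 is under the 0.19 between probe sets of a gene.

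**Figure D3:**
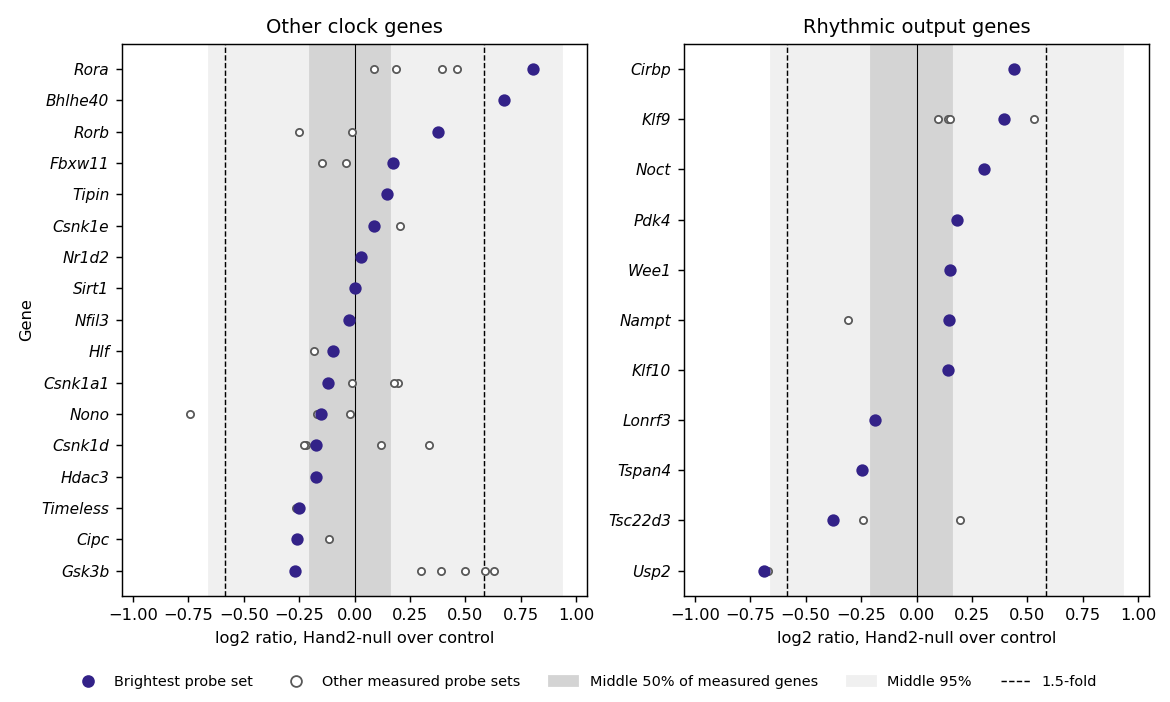
Log2 ratio of signal, Hand2-null over floxed control, for measured genes of the wider clock (left) and of rhythmic output (right), with a filled point for the brightest probe set and open points for the others. Values with 1 array under its floor are drawn at the floored ratio, and Rora at 0.81, Bhlhe40 at 0.67 and Usp2 at -0.69 are the filled points beyond the dashed 1.5-fold lines.

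Per1 and Per2 also answer directly to cAMP and to glucocorticoids, apart from the clock, and lists of such genes were read beside them. Of 9 measured genes of the cAMP response 8 were higher and 1 lower, and their median log2 ratio was 0.53. Over all measured genes 44.7% were higher, and the median was -0.03. Fosb, at 468 and 920, had a log2 ratio of 0.98, and Nr4a2, Pde4b and Nr4a3 had 0.83, 0.73 and 0.66. Immediate-early and heat-shock genes, which share 4 genes with that list and respond to cell handling, had a median of 0.41, with 22 of 26 higher. The other 4 were lower, the largest in size being Myc at 776 and 475, a log2 ratio of -0.71. Per1 at 0.18 and Per2 at 0.57 lay on the same side as the medians of these lists. The part of such responses in the values of Per1 and Per2 was not tested. The 14 glucocorticoid response genes were split, with 6 higher, 8 lower and a median of -0.06.

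Transcripts used as markers of other cells of the uterine wall were also measured in the isolates. Signals of pooled RNA do not show which cells made them. The 12 stromal markers were all above the floor in both arrays, 6 higher and 6 lower, with a median of -0.06 in log2 ratio and summed signals of 53797 and 58815. All 12 smooth muscle markers were higher by their brightest probe sets, with a median of 1.31 and summed signals of 20141 and 45013. Of the 3 measured probe sets of Synpo2, however, 2 were lower, and 10 of the 12 markers reached the floor in the control array. Of 6 mesothelial markers 5 were higher, with a median of 0.86 and sums of 952 and 1434. Only 3 of the 6 reached the floor in the control array, so the ratios of Msln, Lrrn4 and Upk1b are bounds. Of 14 epithelial markers 11 were higher, with a median of 0.25. Lower were 8 of 10 endothelial, 6 of 8 macrophage and 3 of 5 measured natural killer and T cell markers, with medians of -0.24, -0.08 and -0.34. The largest ratios in size of the endothelial and of the natural killer and T cell lists went the other way, Cldn5 at 1.55 and Cd3g at 0.89. Of all measured genes 44.7% were higher. No marker was listed at 0, and Ncr1, Cd3e and Prf1 were under the floor in both arrays. Fewer cells of a type and less RNA per cell cannot be told apart in such pools. The part of smooth muscle and mesothelial RNA in the higher values of Rora, Bhlhe40 and Per2, and of endothelial RNA in the lower values of Tef and Usp2, was not tested.

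**Figure D4:**
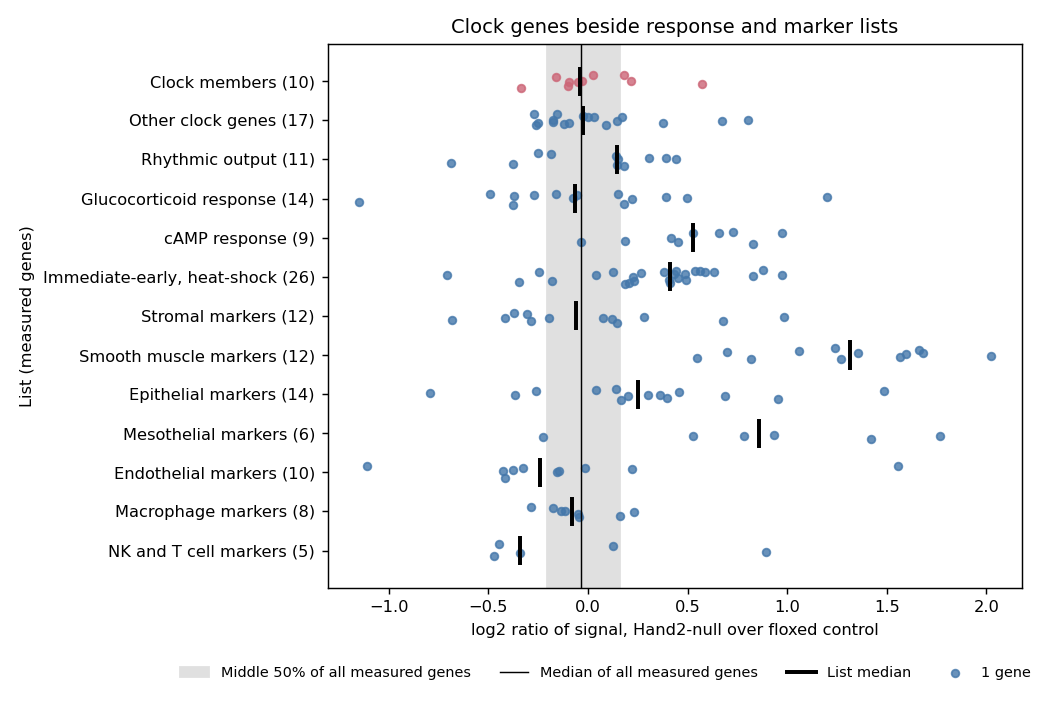
Log2 ratio of signal, Hand2-null over floxed control, of each measured gene (1 point, scattered vertically for legibility) in the clock genes, response lists and cell type marker lists, with list medians as black bars. The clock genes have a median of -0.04 beside -0.03 for all measured genes, the cAMP list has 0.53 and the smooth muscle list 1.31.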

How the data were processed

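Stromal cells were isolated by enzyme digestion and brief attachment to plates, and pooled total RNA of each genotype was labelled from 100 ng, per the labels' protocols. The deposited values are linear array intensity, which the authors computed with MAS5; the submitters' processing notes also name Affymetrix Expression Console, version 1. With 2% trimmed from each tail both arrays had a mean of 150.001, which shows scaling to a common mean by the authors. Other normalization and detection calls are not given in the sources used here. Because MAS5 takes mismatch probes off the signal, ratios between dim signals are unsteady.

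Control probe sets, 64 of 45101, were dropped, and 34945 of the others named 1 gene, 932 several and 9160 none in the platform annotation. Signals were floored, put on a log2 scale and set against each other as a ratio of Hand2-null over control. No test was made, since there was 1 array per group, and the number of arrays limits the precision. The 15 gene lists, which include the members, had 171 entries, of which 163 were on the array. They were chosen with earlier results of these data known. Named were all members, all measured genes of the wider clock list, up to 4 genes of each other list with the largest ratio, and Hand2. List genes under the floor, Pdk4 and Nampt, the other measured probe sets and the remaining named markers were added after their values were seen. No genes were named for likeness of pattern, since 2 arrays give none. The ratio procedure was tested on simulated arrays. Python 3.11.15, numpy 2.4.6, pandas 2.3.3, statsmodels 0.14.6 and matplotlib 3.10.9 were used.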

Additional observations from a re-analysis of the deposited data

How the results depend on the processing

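The 9 alternatives were a floor at percentile 50, at percentile 75 or absent, a pseudo-signal of the floor's size, quantile normalization, centring on the median, loess (span 0.3), the mean over measured probe sets, and leaving out _s_at and _x_at probe sets. The median log2 ratio of the clock genes stayed between -0.07 and 0.02 in them, and repressors and output factors minus activators between -0.18 and -0.02. The ends at 0.02 and -0.18 came with the floor at the 75th percentile, which left 5 of the 10 genes. The count of clock genes at least 1.5-fold different was 0 in the other 8 and at a threshold of 2-fold, and 1 after centring on the median, where Per2 reached a log2 ratio of 0.60. Over single genes, 82 of 85 values moved by less than the spread between probe sets, and 80 kept their sign. Per2 was at 0.35 with the pseudo-signal, and Per3 at -0.33 with the floor at the 50th percentile or none. Clock turned to -0.01 with the mean over probe sets, and Dbp turned positive, up to 0.08, in 4 alternatives. Of the rhythmic output genes 1 more, Pdk4, was past 1.5-fold with the floor at percentile 50 or absent, and of the wider clock genes Ciart also was, at 0.76, with it absent. With no floor, dim probe sets under it in both arrays would give log2 ratios from -0.89 to 2.54 for single clock probe sets, both ends from Per3. No paired analysis was possible because each group has 1 array. No replicate could be left out for the same reason.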

Other observations

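The glucocorticoid response list held 1 gene with over 2-fold more signal in Hand2-null cells and 1 with over 2-fold less, of 14 measured, where 2.73% of all measured genes differed 2-fold in either direction. Sgk1, a kinase of ion transport, had 1067 in the control and 2452 in the Hand2-null array, 2.30-fold higher or a log2 ratio of 1.20. Klf15, a Kruppel-like factor, had 176 and 79.3, 2.22-fold lower or a log2 ratio of -1.15, each on 1 measured probe set. Zbtb16, a zinc finger factor that progesterone and glucocorticoids both induce, was lower by all 3 measured probe sets, at log2 ratios of -0.49 and -1.22 and, with the Hand2-null array under its floor, -0.28 or lower. Errfi1, a feedback inhibitor of the EGF receptor, was higher at 0.50. Stromal and smooth muscle markers had medians of -0.06 and 1.31 in the same arrays, and their part in these values was not tested.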
